A study of Mus musculus with 11 samples.

Results

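The genes described here encode enzymes and binding proteins that remove reactive oxygen species, make and use glutathione, or bind metals. They were taken as a list of 38 genes, of which 35 were present among the 18194 genes of the array, each read by its brightest single-symbol probe set on average. The list held superoxide dismutases, catalase and glutathione peroxidases, peroxiredoxins, the thioredoxin system, glutathione synthesis, glutathione transferases, the metallothioneins Mt1 and Mt2, haem oxygenase 1 and the quinone reductase Nqo1. Prdx1, Prdx5 and Prdx6 are not analysed here.

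RNA came from hearts of C57BL/6 mice, described as left ventricle in the study's design, and was read on Affymetrix mouse arrays. HMGN5 is a protein that binds nucleosomes and loosens chromatin. In the transgenic mice a full-length, FLAG-tagged Hmgn5 cDNA of the mouse lay behind a floxed LacZ cassette under the CAG promoter, and alphaMHC-cre removed LacZ in heart muscle cells. The 11 arrays were 3 of transgenic adult hearts, 3 of control adult hearts, 3 of transgenic newborn hearts and 2 of control newborn hearts, all labelled as biological replicates. Controls were labelled control or wild-type, and no label gives them the cre transgene. Because cre acts in muscle cells, a transcript made by other cells of the ventricle was read in cells that the transgene was not directed to. The ages are given as adult and newborn without days. In bulk tissue, fewer cells of a type and less RNA per cell cannot be told apart.

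Superoxide dismutases turn superoxide into hydrogen peroxide, which catalase, glutathione peroxidases and peroxiredoxins then remove. Glutathione peroxidases spend glutathione and peroxiredoxins spend thioredoxin, and both are restored with NADPH. Glutathione transferases also spend glutathione, by attaching it to other compounds. Heart muscle is rich in mitochondria, a main source of superoxide in the cell. Many of these genes are targets of the transcription factor NRF2 at antioxidant response elements, while metallothioneins are induced through the zinc sensor MTF1 at metal response elements and also by glucocorticoids and inflammatory signals.

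The single Hmgn5 probe set read 8.29, 8.26 and 8.71 on the log2 scale in transgenic adult hearts, against 8.44, 8.77 and 8.52 in control adult hearts, so it did not separate the groups. Whether this probe set can detect the transcript of the transgene is not known here, and each direction below rests on the labels. The mean of the 18S ribosomal control probe sets split the 6 adult arrays: replicate 3 of both groups read 11.89 to 12.18, while the other 4 read 7.64 to 8.58. The 5 newborn arrays read 10.05 to 10.53 there. Differences of age therefore cannot be told apart from any difference in how the arrays were processed, which no label describes. The 18S batches named below are this split of the adult arrays by signal, as no label gives a batch. The mean of 8 heart muscle markers was 13.27, 13.38 and 13.61 in transgenic adult hearts, against 13.50, 13.63 and 13.75 in control adult hearts. None of the 8 passed, though 6 differences were negative and 3 genes lay wholly below control, with a median of -0.20, and the part of this in the results was not tested. In newborns the mean was 13.48 to 13.56 in transgenic and 13.55 to 13.56 in control hearts. The mean of 3 atrial genes, in tissue described as ventricle, was 10.53, 6.59 and 6.52 in transgenic adult hearts, against 10.10, 10.38 and 12.24 in control adult hearts. Adult arrays of 1 group varied more than newborn ones, with a median SD over all genes of 0.20 in transgenic adult and 0.18 in control adult hearts, against 0.10 in transgenic newborn and 0.08 in control newborn hearts.

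In adult hearts the transgenic group had higher Mt2, Gpx3, Hmox1, Sod3, Gpx1 and Gsto1, by 1.50-fold to 3.98-fold, and lower Gstk1, by 2.50-fold. These were 7 of 35 genes with a limma adjusted p under 0.05, 6 higher and 1 lower, where 7.09% of all 18194 genes were called (4.16% higher and 2.93% lower). The median log2 difference, transgenic minus control, was 0.24 over the 35 genes and 0.00 over all genes. The 3 transgenic values lay wholly above the 3 control values for 8 genes and wholly below for 5, together 37.1% of the list, against 17.9% of all genes. With the newborn arrays left out of the fit, so that adult arrays alone set the spread, Gstk1 alone of the 7 kept its call, and the 6 higher genes had limma adjusted p between 0.0609 and 0.131 with the same differences.

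**Figure D1:**
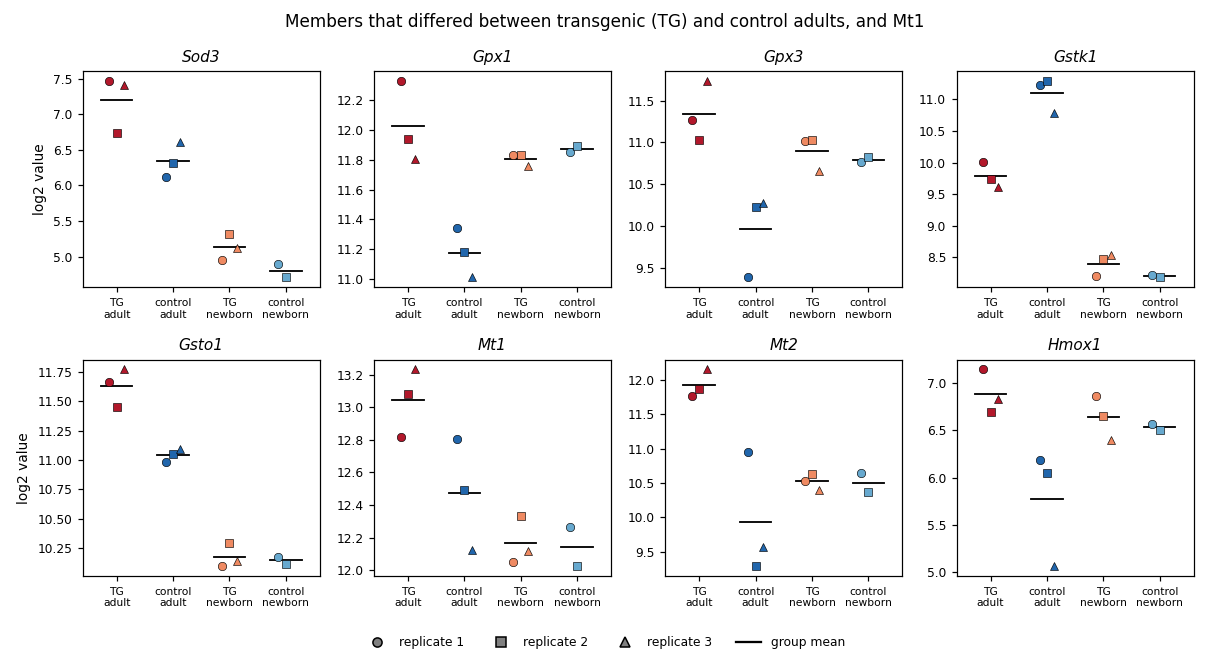
Log2 values by array for the 7 genes called between transgenic and control adult hearts and for Mt1, with group means as bars and the replicate number as the symbol. In each panel the transgenic adult points lie wholly on one side of the control adult points, and no newborn difference exceeds 0.33.

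Among superoxide dismutases, Sod3, the secreted extracellular enzyme, was higher in transgenic adult hearts. It read 7.47, 6.74 and 7.40 in transgenic adult hearts, against 6.12, 6.31 and 6.61 in control adult hearts, with means of 7.20 ± 0.41 and 6.35 ± 0.24 (SD, n = 3 each). The groups did not overlap, and the difference was 0.86 (SE 0.20, 95% interval 0.42 to 1.30, limma adjusted p = 0.0261). This call ended in several settings: the limma adjusted p was 0.0903 without transgenic adult replicate 1, 0.0732 and 0.0877 without control adult replicates 1 and 2, 0.0536 with array weights and 0.219 with the mean of both Sod3 probe sets, where the difference was 0.48. The other Sod3 probe set differed by 0.11 (limma adjusted p = 0.893). In newborns Sod3 read 4.95, 5.32 and 5.13 in transgenic hearts, against 4.90 and 4.71 in control hearts, a difference of 0.33 with a 95% interval of -0.17 to 0.82.

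Sod2, the manganese enzyme of mitochondria, gave an answer that depended on the probe set. The probe set with the highest mean read 12.59, 12.35 and 12.57 in transgenic adult hearts, against 12.70, 12.82 and 12.69 in control adult hearts. All transgenic values were lower, yet the difference of -0.23 did not pass (limma adjusted p = 0.257). The 2 dimmer probe sets of Sod2 showed wider gaps. The brighter of these read 8.92, 9.19 and 8.58 in transgenic adult hearts, against 9.84, 10.12 and 10.00 in control adult hearts. In a fit over all probe sets it differed by -1.09 (SE 0.16, limma adjusted p = 0.00455). The dimmest Sod2 probe set read 6.29, 6.11 and 6.10 in transgenic adult hearts, against 7.04, 7.27 and 7.08 in control adult hearts, a difference of -0.97 (SE 0.11, limma adjusted p = 0.00146). The remaining probe set differed by -0.25 (limma adjusted p = 0.246). All 4 Sod2 probe sets thus ran the same way, and 2 of them passed. Averaged over its 4 probe sets, Sod2 fell by 0.63 in transgenic adult hearts (limma adjusted p = 0.00183). Sod1, the copper-zinc enzyme of the cytosol, differed by 0.03 with a 95% interval of -0.31 to 0.38.

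**Figure D2:**
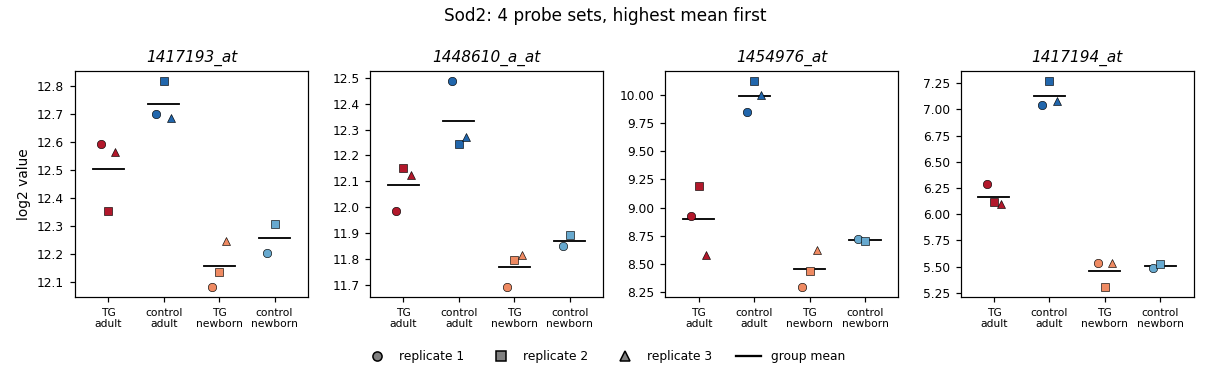
Log2 values by array for the 4 Sod2 probe sets, ordered by mean, with group means as bars and a separate vertical scale in each panel. Transgenic adult points lie below control adult points in every panel, by 0.23 and 0.25 in the 2 brighter probe sets and by 1.09 and 0.97 in the 2 dimmer ones.

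Catalase and the glutathione peroxidases all had positive differences in adult hearts, and 2 of 6 passed. Gpx3, the selenium peroxidase secreted into plasma, read 11.27, 11.03 and 11.74 in transgenic adult hearts, against 9.38, 10.23 and 10.27 in control adult hearts. The lowest transgenic value exceeded the highest control value, and the difference was 1.39 (2.61-fold, SE 0.25, 95% interval 0.85 to 1.93, limma adjusted p = 0.00688). Gpx1, the selenium peroxidase of cytosol and mitochondria, read 12.33, 11.94 and 11.80 in transgenic adult hearts, against 11.34, 11.18 and 11.01 in control adult hearts. These groups did not overlap either, and the difference was 0.85 (1.80-fold, SE 0.14, 95% interval 0.54 to 1.16, limma adjusted p = 0.00518). Within the 18S batches the Gpx3 difference was 1.34 over the 4 low-18S arrays and 1.47 between the 2 high-18S arrays, and that of Gpx1 was 0.88 and 0.80.

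Gpx7 and Gpx8, peroxidases of the endoplasmic reticulum that do not carry selenium, differed between the 18S batches. Gpx8 read 9.98, 9.83 and 8.84 in transgenic adult hearts, against 9.01, 8.94 and 8.73 in control adult hearts. Gpx7 read 8.88, 8.55 and 7.96 in transgenic adult hearts, against 7.99, 7.85 and 7.92 in control adult hearts. For both, transgenic replicates 1 and 2 were above every control array, while replicate 3 lay within the control range. Over all 6 adult arrays the differences were 0.66 for Gpx8 and 0.54 for Gpx7 (limma adjusted p = 0.144 and 0.129). Over the low-18S arrays they were 0.93 and 0.79, and between the high-18S arrays 0.11 and 0.04, and both genes were called when the 18S batch was left out or fitted as a factor. Gpx4, which reduces peroxidised membrane lipids, differed by 0.30 (95% interval -0.03 to 0.62), and Cat, the peroxisomal catalase, by 0.28 (95% interval -0.12 to 0.69).

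The selenium and fibroblast lists give context for the peroxidases. None of the 8 measured genes of selenoprotein synthesis was called in adult hearts, and their median difference was -0.09. The mean of 8 fibroblast markers was 10.85, 10.92 and 10.33 in transgenic adult hearts, against 10.10, 9.67 and 10.59 in control adult hearts. All 8 had positive differences and 1 passed, Tcf21, a fibroblast transcription factor, at 0.82 (limma adjusted p = 0.0223). The fibroblast mean was highest in transgenic replicates 1 and 2, as were Gpx7 and Gpx8, and its part in these results was not tested.

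Of the peroxiredoxins, none passed in adult hearts. Prdx3, the mitochondrial member, read 11.63, 11.35 and 11.51 in transgenic adult hearts, against 11.84, 11.98 and 11.76 in control adult hearts. All transgenic values were below all control values, with a difference of -0.36 (95% interval -0.60 to -0.12, limma adjusted p = 0.0738). Prdx4, of the endoplasmic reticulum, read 10.54, 10.05 and 9.37 in transgenic adult hearts, against 9.67, 9.69 and 9.01 in control adult hearts, a difference of 0.53 (limma adjusted p = 0.300). Its groups overlapped because replicate 3 was low in both groups. Prdx2, of the cytosol, differed by -0.15 (95% interval -0.43 to 0.12).

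The thioredoxin system did not pass in adult hearts in either direction. The mitochondrial pair had negative differences: the thioredoxin Txn2 differed by -0.41 (95% interval -0.82 to 0.00) and its reductase Txnrd2 by -0.32 (95% interval -0.65 to 0.00). The cytosolic pair had positive ones: the thioredoxin Txn1 differed by 0.33 (95% interval 0.00 to 0.66) and its reductase Txnrd1 by 0.16 (95% interval -0.09 to 0.41). Txnip, which binds and inhibits thioredoxin, differed by -0.23 (95% interval -0.70 to 0.24). For Txnrd2 alone of these 5 genes the groups did not overlap, with 8.09, 8.17 and 8.06 in transgenic adult hearts, against 8.24, 8.77 and 8.28 in control adult hearts.

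Glutathione synthesis and reduction also had 0 of 4 genes called in adult hearts. Gclm, the modifier subunit of the rate-limiting enzyme of glutathione synthesis, read 7.66, 7.95 and 9.64 in transgenic adult hearts, against 7.86, 8.05 and 8.05 in control adult hearts. Transgenic replicate 3 was the high array, and the other 2 transgenic values lay below or among the controls. The difference of 0.43 had a 95% interval of -0.47 to 1.34. The other Gclm probe set read 5.49, 6.45 and 7.46 in transgenic adult hearts, against 5.78, 5.64 and 5.27 in control adult hearts. There replicate 2 also lay above every control, with a difference of 0.90 (limma adjusted p = 0.272 over all probe sets). The catalytic subunit Gclc differed by 0.10 (95% interval -0.19 to 0.38), the glutathione synthetase Gss by 0.32 (95% interval 0.00 to 0.65) and the glutathione reductase Gsr by -0.06 (95% interval -0.48 to 0.37).

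The glutathione transferases, which attach glutathione to lipid peroxidation products and foreign compounds, moved in both directions in adult hearts, with 1 of 10 higher and 1 lower and a median difference of -0.05. Gstk1, the kappa-class enzyme of mitochondria and peroxisomes, read 10.01, 9.74 and 9.61 in transgenic adult hearts, against 11.23, 11.30 and 10.79 in control adult hearts, with means of 9.79 ± 0.21 and 11.11 ± 0.28 (SD, n = 3 each). The highest transgenic array was below the lowest control array, and Gstk1 fell by 1.32 (SE 0.16, 95% interval of the difference -1.67 to -0.97, limma adjusted p = 9.64e-04). It was the call of the 7 that held in all 21 alternative settings, and it was -1.39 over the low-18S arrays and -1.18 between the high-18S arrays.

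Gsto1, the omega-class enzyme, read 11.67, 11.45 and 11.77 in transgenic adult hearts, against 10.98, 11.05 and 11.10 in control adult hearts. The groups did not overlap, and the difference was 0.58 (1.50-fold, SE 0.11, 95% interval 0.34 to 0.83, limma adjusted p = 0.0101). The other Gsto1 probe set differed by 0.60 (limma adjusted p = 0.0416 over all probe sets). The membrane-bound transferases went opposite ways without passing. Mgst1 read 11.21, 11.03 and 11.11 in transgenic adult hearts, against 10.60, 10.62 and 10.43 in control adult hearts, a difference of 0.57 (limma adjusted p = 0.0704). Mgst3 read 12.26, 12.19 and 11.94 in transgenic adult hearts, against 12.64, 12.78 and 12.41 in control adult hearts, a difference of -0.48 (limma adjusted p = 0.0528). In neither did the groups overlap. The alpha-class Gsta3 and Gsta4, the mu-class Gstm1, Gstm2 and Gstm5 and the theta-class Gstt1 overlapped between groups, with differences between -0.47 for Gstt1 and 0.58 for Gsta3. In 4 genes of the list the difference was negative over the low-18S arrays and above 1 between the high-18S arrays: Gsta3 at -0.15 and 2.05, Gclm at -0.15 and 1.59, Nqo1 at -0.31 and 1.33, and Gsta4. Gsta4 read 9.89, 9.87 and 10.80 in transgenic adult hearts, against 10.36, 10.19 and 9.72 in control adult hearts, so the difference was -0.40 over the low-18S arrays and 1.08 between the high-18S arrays. Without the high-18S arrays Gsta4 had a limma adjusted p of 0.0444.

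The metallothioneins are small cysteine-rich proteins that bind zinc and copper and scavenge oxidants, and Mt2 had the widest gap of the 35 genes in adult hearts. It read 11.76, 11.86 and 12.16 in transgenic adult hearts, against 10.95, 9.29 and 9.56 in control adult hearts, with means of 11.93 ± 0.20 and 9.93 ± 0.89 (SD, n = 3 each). The controls were spread, with replicate 1 well above the other 2, yet all lay below the transgenic arrays. The difference was 1.99 (3.98-fold, SE 0.34, 95% interval 1.25 to 2.74, limma adjusted p = 0.00551). It was 1.69 over the low-18S arrays and 2.59 between the high-18S arrays. Mt1, its neighbour in the genome, read 12.82, 13.08 and 13.23 in transgenic adult hearts, against 12.81, 12.49 and 12.13 in control adult hearts. The groups were apart but nearly touched, at transgenic replicate 1 and control replicate 1, and the difference of 0.57 did not pass (SE 0.18, 95% interval 0.18 to 0.96, limma adjusted p = 0.0863). This Mt1 probe set can also read related transcripts, by its name. The other Mt1 probe set, much dimmer, read 5.76, 5.59 and 6.85 in transgenic adult hearts, against 5.94, 5.93 and 6.15 in control adult hearts. Its groups overlapped, with a difference of 0.06 (limma adjusted p = 0.957 over all probe sets).

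The single Mt2 probe set and the brighter Mt1 probe set lay above control in every adult transgenic array. The promoters were therefore searched for the core of the metal response element, TGCACNC or TGCGCNC, on both strands. Windows ran from 250 bases before to 50 after each RefSeq start (build GRCm38.p6). The sites below, each shown in 29 bases given on the gene's strand, have the core in capitals. Of 32851 promoter windows of all genes, 25.7% held at least 1 such core and 7.11% at least 2; Mt2 held 4 and Mt1 held 3. A match describes letters and is not evidence of binding.
Mt2 chr8:94172384-94172412: agcatcgcctcTGCACCCggcccctcggg
Mt2 chr8:94172479-94172507: cgcagacccttTGCGCTCagctcctttgc
Mt2 chr8:94172557-94172585: ggggggagggcGTGTGCAggctctgtccc
Mt2 chr8:94172611-94172639: gaattcgggtcGTGCGCAggcccaggggc
Mt1 chr8:94179055-94179083: cggtcccgctgTGCACACtggcgctccag
Mt1 chr8:94179080-94179108: ccagggagctcTGCACTCcgcccgaaaag
Mt1 chr8:94179098-94179126: cgcccgaaaagTGCGCTCggctctgccaa

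Both genes lie on the plus strand of chromosome 8, and the Mt2 sites beginning at 94172557 and 94172611 match on the minus strand. The antioxidant response element core TGACNNNGC was found in 12.4% of all windows and, among the called genes that had a window, in Mt2 alone, without overlap with the metal response cores. It is printed with its core in capitals.
Mt2 chr8:94172529-94172557: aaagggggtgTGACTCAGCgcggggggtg

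Of the 35 genes, 30 had a promoter window, and 11 of these held a metal response core and 7 an antioxidant response core. Some genes had several windows. Of their 37 windows, 12 held a metal response core and 7 an antioxidant response core, against 25.7% and 12.4% of all windows. The called genes Hmox1 and Sod3 had no window and were not searched. The windows of Gpx1, Gpx3 and Gsto1, all higher in transgenic adult hearts, held neither. Gstk1, which was lower, held 2 metal response cores.

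Hmox1, which encodes the inducible enzyme that breaks down haem, was higher in transgenic adult hearts. It read 7.14, 6.69 and 6.83 in transgenic adult hearts, against 6.19, 6.05 and 5.07 in control adult hearts. The groups did not overlap, and the difference was 1.12 (2.17-fold, SE 0.26, 95% interval 0.55 to 1.69, limma adjusted p = 0.0252). It was 0.80 over the low-18S arrays and 1.76 between the high-18S arrays, where control replicate 3 was the low array. Without transgenic adult replicate 1 the limma adjusted p was 0.0884. Nqo1, the quinone reductase and a well-known NRF2 target, read 8.53, 8.67 and 9.26 in transgenic adult hearts, against 8.63, 9.18 and 7.94 in control adult hearts, and the groups overlapped (difference 0.24, 95% interval -0.37 to 0.84).

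Markers of macrophages, cells that express Hmox1 when they take up red cells, ran the same way. The mean of 9 macrophage markers was 9.50, 9.49 and 8.85 in transgenic adult hearts, against 8.95, 8.60 and 8.65 in control adult hearts. All 9 differences were positive, between 0.04 and 0.79, and 3 passed. They were the complement genes C1qa at 0.70 and C1qc at 0.69, and the mannose receptor Mrc1 at 0.79 (limma adjusted p = 0.0356, 0.0188 and 0.0456). The mean of 6 adipocyte markers was 5.03, 4.95 and 4.96 in transgenic adult hearts, against 5.16, 5.13 and 6.38 in control adult hearts, and 0 of 6 passed. The mean of 5 erythroid markers was 5.38, 5.38 and 5.67 in transgenic adult hearts, against 5.38, 5.37 and 5.07 in control adult hearts, and 0 of 5 passed. The mean of 6 endothelial markers was 8.90, 8.65 and 8.67 in transgenic adult hearts, against 8.88, 8.87 and 8.76 in control adult hearts. Of these 6, 3 had positive and 3 negative differences with a median of -0.07, and 1 passed: Kdr, the receptor for vascular endothelial growth factor, fell by 0.78 in transgenic adult hearts (limma adjusted p = 0.0209). The part of these cell types in the antioxidant results was not tested.

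**Figure D3:**
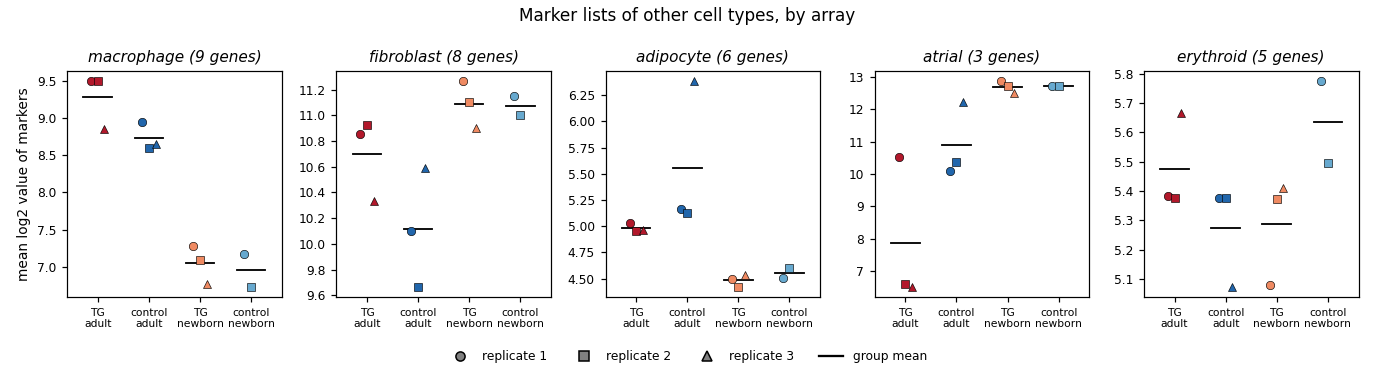
Mean log2 value of 5 marker lists by array, with group means as bars, the replicate number as the symbol and a separate vertical scale in each panel. Macrophage means lie between 8.85 and 9.50 in transgenic adult hearts and between 8.60 and 8.95 in control adult hearts, and control adult replicate 3 stands high for adipocyte and atrial genes.

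Other genes of the same pathways were counted in adult hearts against the same shares of all genes, 4.16% higher and 2.93% lower. Of 21 measured NRF2 regulators and further targets, 3 were higher and 0 lower, with a median difference of 0.07. They were the small Maf proteins Maff at 1.43 (SE 0.27, limma adjusted p = 0.00923) and Mafk at 0.99 (SE 0.14, limma adjusted p = 0.00244), which pair with NRF2 on DNA, and the sulfiredoxin Srxn1, which repairs overoxidised peroxiredoxins, at 1.05 (SE 0.21, limma adjusted p = 0.0115). Mafk read 8.83, 8.84 and 9.16 in transgenic adult hearts, against 8.02, 8.02 and 7.80 in control adult hearts. Nfe2l2, the gene of NRF2 itself, and Keap1, its inhibitor, are named here after their values were seen: they differed by 0.35 and -0.01 (limma adjusted p = 0.164 and 0.968).

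Of 14 genes of metal sensing and zinc transport, 2 were higher and 0 lower, with a median difference of 0.07. Slc39a6, a zinc importer of the cell surface, read 7.66, 7.91 and 7.80 in transgenic adult hearts, against 6.22, 6.11 and 6.13 in control adult hearts. The gap of 1.64 was far wider than the spread within either group (SE 0.12, limma adjusted p = 7.15e-05). In newborns Slc39a6 read 8.47, 8.26 and 8.06 in transgenic hearts, against 8.23 and 8.08 in control hearts, and the adult effect exceeded the newborn effect by 1.53 (limma adjusted p = 0.00677). The zinc transporter Slc30a4 was higher by 0.58 (limma adjusted p = 0.0485).

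Genes that supply NADPH or repair thiols gave 0 higher and 2 lower of 18, with a median difference of -0.23. Both encode mitochondrial makers of NADPH. Nnt, the transhydrogenase, read 11.25, 11.34 and 11.23 in transgenic adult hearts, against 11.87, 11.90 and 12.41 in control adult hearts, a difference of -0.79 (SE 0.17, limma adjusted p = 0.0197). Idh2, the NADP-dependent isocitrate dehydrogenase, read 12.31, 12.03 and 12.22 in transgenic adult hearts, against 12.45, 12.83 and 12.70 in control adult hearts, a difference of -0.47 (SE 0.12, limma adjusted p = 0.0450). Of 18 further members of the antioxidant families, 0 were higher and 1 lower: Nqo2, a quinone reductase, read 7.40, 7.57 and 7.06 in transgenic adult hearts, against 8.16, 8.21 and 8.25 in control adult hearts. Its difference was -0.86 (SE 0.13, limma adjusted p = 0.00259), and the adult effect was 1.08 below the newborn effect (difference -1.08, limma adjusted p = 0.0299).

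In newborn hearts none of the 35 genes passed, nor did any of the 18194 genes (0.00%). Without adjustment, 198 of the 18194 genes had a limma p under 0.05, a smaller share than 0.05 of the genes. The spread in this test was shared with the adult arrays, which varied more. This count therefore does not show that newborn effects are absent. The median difference of the 35 genes was 0.03, 30 of 35 lay within 0.25 of 0, and the 95% intervals reached a median of 0.44 to either side. The transgenic values were wholly above or below the control values for 8 genes, 22.9% of the list, against 20.9% of all genes. The widest gaps were those of Gstt1 and Txnip. Gstt1 read 7.39, 7.07 and 6.75 in transgenic newborn hearts, against 6.59 and 6.24 in control newborn hearts, a difference of 0.65 (95% interval -0.02 to 1.33). Txnip read 11.39, 11.19 and 10.75 in transgenic newborn hearts, against 11.58 and 11.85 in control newborn hearts, a difference of -0.61 (95% interval -1.14 to -0.08) that did not pass over all genes (limma adjusted p = 0.999985).

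Of the 7 genes called in adults, Sod3 had the widest newborn difference, 0.33, with newborn groups that did not overlap, as described above. The other 6 differed by 0.20 or less. Mt2 read 10.53, 10.64 and 10.40 in transgenic newborn hearts, against 10.64 and 10.37 in control newborn hearts, a difference of 0.02 (95% interval -0.81 to 0.85). Gpx1 read 11.83, 11.83 and 11.76 in transgenic newborn hearts, against 11.86 and 11.89 in control newborn hearts, a difference of -0.07 (95% interval -0.42 to 0.28). Gstk1 read 8.20, 8.47 and 8.53 in transgenic newborn hearts, against 8.22 and 8.18 in control newborn hearts, a difference of 0.20 (95% interval -0.20 to 0.59). Gpx3, Gsto1 and Hmox1 differed by 0.11, 0.03 and 0.10. The test of the difference between adult and newborn effects passed for 1 of 35 genes, against 0.687% of all genes. That gene was Gstk1, with an adult effect 1.52 below the newborn effect (difference -1.52, SE 0.24, 95% interval -2.05 to -0.99, limma adjusted p = 0.0196). This call was lost in 5 of the settings that left out 1 array, with limma adjusted p up to 0.149 without control newborn replicate 1. The same test gave 0.92 for Gpx1, 1.97 for Mt2, 1.28 for Gpx3, 0.55 for Gsto1, 1.01 for Hmox1 and 0.53 for Sod3 (limma adjusted p = 0.0940, 0.127, 0.185, 0.217, 0.377 and 0.648), so for these 6 the effects were not shown to differ by age.

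**Figure D4:**
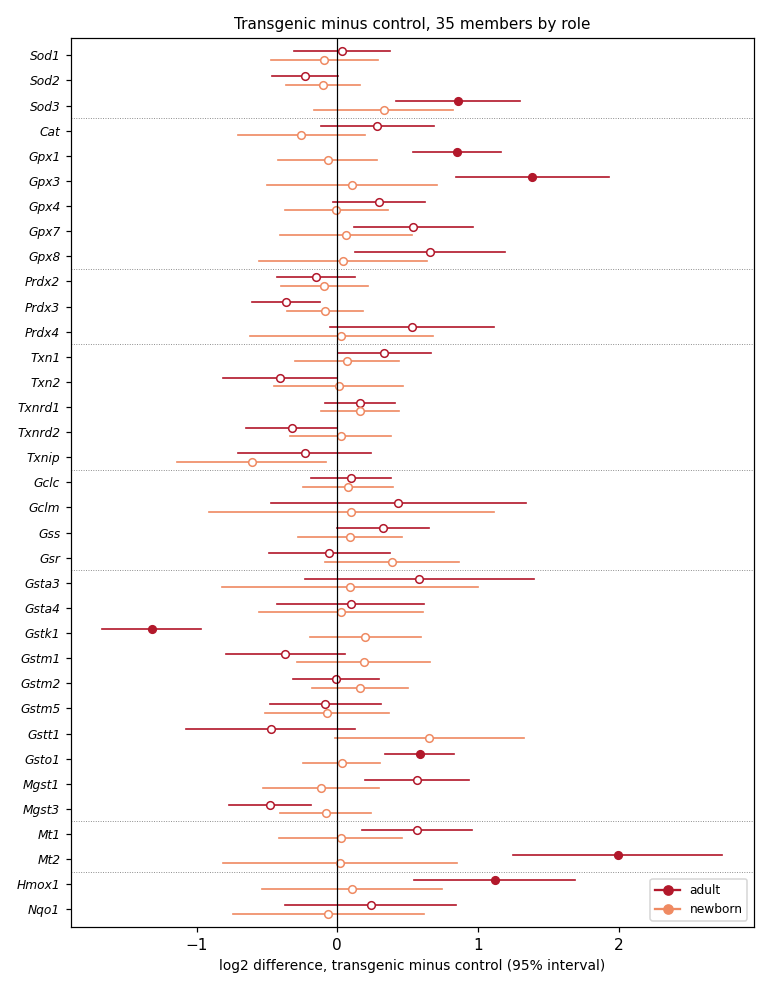
Difference in log2 value, transgenic minus control, for the 35 genes in adult and newborn hearts, with 95% intervals and filled points for genes that passed. Mt2 lies at 1.99 and Gstk1 at -1.32 in adults, while every newborn point lies between -0.61 and 0.65.

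Between adult and newborn hearts more of the genes differed. In transgenic hearts 19 of 35 passed, 16 higher and 3 lower in adults, where 39.4% of all genes were called (19.7% higher and 19.7% lower). In control hearts 18 of 35 passed, 13 higher and 5 lower in adults, where 33.0% of all genes were called (14.9% higher and 18.1% lower). The median difference, adult minus newborn, was 0.36 in transgenic and 0.30 in control hearts, against 0.09 over all genes in both. Adult and newborn values did not overlap for 20 genes in transgenic hearts (17 above and 3 below, 57.1% of the list against 54.6% of all genes, of which 30.0% above and 24.7% below), and for 26 genes in control hearts (17 above and 9 below, 74.3% of the list against 63.6% of all genes, of which 35.1% above and 28.5% below). Called in both genotypes were 13 genes higher and 3 lower in adults: the higher ones were Sod2, Sod3, Cat, Gpx4, Prdx3, Nqo1 and the transferases Gsta3, Gstk1, Gstm1, Gstm2, Gstt1, Gsto1 and Mgst3, and the lower ones Gpx7, Prdx4 and Txnrd1.

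The glutathione transferases were mostly higher in adults than in newborns. All 10 were positive in both genotypes, 8 passed in transgenic and 7 in control hearts, and the median was 1.19 in transgenic and 1.06 in control hearts. Gsta3 read 6.19, 6.81 and 7.53 in transgenic adult hearts and 6.29, 7.01 and 5.48 in control adult hearts, against 4.10, 3.91 and 3.96 in transgenic newborn hearts and 3.81 and 3.99 in control newborn hearts. Its age difference was 2.85 in transgenic and 2.36 in control hearts (SE 0.37 and 0.41). Gstm1, a mu-class gene, differed with age by 1.28 in transgenic and 1.84 in control hearts, and Gstt1 by 1.33 and 2.46. Gstk1 differed with age by 1.39 in transgenic hearts (SE 0.16, limma adjusted p = 9.1e-05) and by 2.90 in control hearts (SE 0.18, limma adjusted p = 1.24e-06).

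Nqo1 read 8.53, 8.67 and 9.26 in transgenic adult hearts and 8.63, 9.18 and 7.94 in control adult hearts, against 6.65, 6.74 and 6.58 in transgenic newborn hearts and 6.81 and 6.63 in control newborn hearts. Adult and newborn arrays were well apart in both genotypes, by 2.16 in transgenic and 1.86 in control hearts. Among enzymes of superoxide and peroxide, Sod3 differed with age by 2.07 in transgenic and 1.54 in control hearts, and Cat by 1.52 and 0.98. Sod2 and Prdx3, both of mitochondria, differed by 0.35 and 0.51 in transgenic hearts, and by 0.48 and 0.78 in control hearts. Gpx1, of cytosol and mitochondria, differed by 0.22 in transgenic and -0.70 in control hearts. The 2 dimmer Sod2 probe sets gave wider age differences, 0.45 and 0.71 in transgenic hearts and 1.28 and 1.63 in control hearts.

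Of the 3 endoplasmic reticulum enzymes, Prdx4 and Gpx7 were lower in adults in both genotypes. Prdx4 read 10.54, 10.05 and 9.37 in transgenic adult hearts and 9.67, 9.69 and 9.01 in control adult hearts, against 11.04, 10.98 and 10.85 in transgenic newborn hearts and 10.93 in both control newborn hearts. Every adult array was below every newborn array for this probe set. On it Prdx4 differed by -0.97 in transgenic and -1.47 in control hearts, and Gpx7 differed by -0.94 and -1.41, all past the test. The next brightest Prdx4 probe set overlapped in transgenic hearts, with 7.82, 8.06 and 7.31 in adults against 7.71, 8.11 and 8.18 in newborns. Its control adult values, 7.28, 6.79 and 6.78, lay below the control newborn ones, 8.23 and 8.44. Gpx8 did not pass in either, at 0.08 in transgenic and -0.54 in control hearts. Txnrd1 differed by -0.37 in transgenic and -0.36 in control hearts, but with the mean of its probe sets the sign turned, to 0.13 and 0.14.

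The other 5 called genes passed the age test in 1 genotype. Mt2, Mt1 and Mgst1 were higher in transgenic adults than in transgenic newborns, by 1.40, 0.88 and 1.11 (limma adjusted p = 0.00802, 0.00323 and 5.26e-04), while the age differences in control hearts were -0.57, 0.33 and 0.43 (limma adjusted p = 0.257, 0.216 and 0.100). Gpx1 and Gpx3 were lower in control adults than in control newborns, by 0.70 and 0.84 on the log2 scale (differences of -0.70 and -0.84, limma adjusted p = 0.00698 and 0.0379), while in transgenic hearts they differed by 0.22 and 0.44 (limma adjusted p = 0.235 and 0.166). The test of the difference between genotypes is the same as that between ages given above, and none of these 5 genes passed it. The Gpx3 call in control hearts was lost in 7 alternative settings, and without control adult replicate 1 its difference was -0.55 (limma adjusted p = 0.0910). The mean macrophage marker level was 8.85 to 9.50 in transgenic adult hearts against 6.77 to 7.28 in transgenic newborn hearts, and 8.60 to 8.95 in control adult hearts against 6.73 to 7.17 in control newborn hearts. All 9 macrophage markers were called higher in adults in both genotypes. Hmox1 was not called with age, at 0.25 in transgenic and -0.76 in control hearts (limma adjusted p = 0.450 and 0.0641). Its control adult values lay wholly below the control newborn ones. The part of macrophages, or of atrial tissue, in the age differences was not tested.

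**Figure D5:**
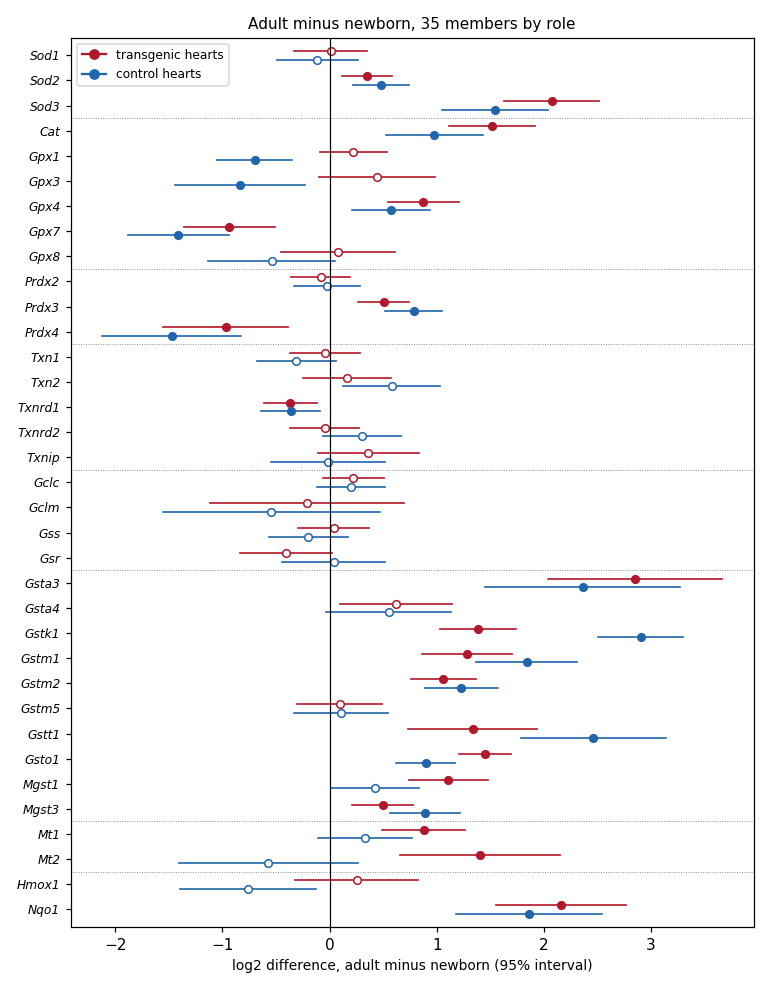
Difference in log2 value, adult minus newborn, for the 35 genes in transgenic and control hearts, with 95% intervals and filled points for genes that passed. The 10 glutathione transferases, Gsta3 to Mgst3, all lie right of 0 in both genotypes, and Gpx7 and Prdx4 lie left of it.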

How the data were processed

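The values deposited by the authors were log2 expression values of 45101 probe sets on 11 arrays; the submitters' processing notes name RMA, affy and limma, with no version or role. Array medians lay between 5.12 and 5.18, so a global shift cannot be seen. Platform annotation gave 34958 probe sets 1 gene symbol, 932 several and 9211 none, and the single-symbol ones read 18194 genes. Where a gene had more than 1 probe set, as 22 of the 35 did, the one with the highest mean was taken, and levels were not compared between probe sets of different genes. All 35 matched the RefSeq table of GRCm38.p6 by gene ID.

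Differences of group means were tested with limma 3.58.1 (R 4.3.3) in 1 model of the 11 arrays, with 7 residual degrees of freedom and 3.85 prior ones. Tests were 2-sided, and calls needed a p under 0.05 after Benjamini-Hochberg adjustment over all 18194 genes. P-values measure the spread between arrays labelled as biological replicates. The scripts were tested on simulated data. Alternatives changed the filter, probe set choice, samples in the fit, variance model, scaling and 18S batch, added the replicate number as a block, or left out each array. The genes and lists were chosen with earlier results of these data known. All members present are described, and of each other list up to 4 called genes with the smallest p in adults.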

Additional observations from a re-analysis of the deposited data

Results flagged for a closer look

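Gstk1 differed in its transgenic effect between ages by the test of that difference. The effect was -1.32 in adult hearts and 0.20 in newborn hearts, a difference of -1.52 (limma adjusted p = 0.0196). The 3 transgenic adult arrays were below the 3 control adult arrays, whereas the newborn groups overlapped. The adjusted p was above 0.05 without control adult replicate 2, without transgenic newborn replicate 2 or 3, and without either control newborn array, with the highest value, 0.149, without control newborn replicate 1. The difference itself stayed between -1.54 and -1.42 in these 5 settings.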

How the results depend on the processing

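The 7 adult calls kept their direction in all 21 alternative settings, and Gstk1 kept its call in all of them. Of the 35 genes, 7 were called in adults; the count was 1 with adult arrays alone in the fit (limma adjusted p up to 0.131 for the 6 higher ones), 13 with a term for the 18S batch, 12 without the arrays of high 18S, and 5 to 10 when 1 array was left out. Over all genes the adult calls numbered 1290, and 373 to 2625 in the alternatives. The test of the difference between ages called 1 gene; it called 2 with the replicate block, 4 with array weights, 4 with a term for the 18S batch, 3 without the arrays of high 18S and 0 to 3 when 1 array was left out. Over all genes it called 125, and 6 to 841 in the alternatives. No gene of the list was called in newborns in any setting. Txnrd1 reversed with the mean of its probe sets, to 0.13 with age in transgenic hearts and 0.14 in control hearts (limma adjusted p = 0.461 and 0.485). In the age comparisons 15 of 19 calls held in every setting in transgenic hearts and 12 of 18 in control hearts, and the counts lay between 16 and 23 and between 13 and 24.

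Same-numbered adult arrays correlated in their deviations at 0.31, -0.06 and 0.45, and differently numbered ones between -0.42 and 0.31. The value of 0.45 was that of the 2 high-18S arrays. The main fit did not take the numbers as pairs and had no term for the 18S split. The replicate block called 9 adult genes, with all 7 among them. The causes of lost or gained calls were not tested, beyond the loss of arrays where arrays were left out. With 2 or 3 arrays a group, newborn intervals reached 0.26 to 1.01 to either side, and changes smaller than that may not pass. These intervals use a spread per gene shared by all groups, so they also carry the spread of the adult arrays, which varied more. Precision is limited by how few arrays there are.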
